A study of Mus musculus with 6 samples.

Results

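The let-7 guide strands are 9 mature miRNAs: mmu-let-7a-5p, mmu-let-7b-5p, mmu-let-7c-5p, mmu-let-7d-5p, mmu-let-7e-5p, mmu-let-7f-5p, mmu-let-7g-5p, mmu-let-7i-5p and mmu-miR-98-5p. They were taken by name from a table of 1414 mature miRNA rows measured by small RNA sequencing of mouse pancreas, and all 9 were found. The model group held 3 libraries, numbered 56, 57 and 59, from C57BL/6 mice with caerulein+LPS, saline as their treatment label. Caerulein is a cholecystokinin analogue that overstimulates acinar cells, and LPS is a component of the outer membrane of Gram-negative bacteria. The control group held 3 libraries, numbered 43, 44 and 45, from C57BL/6 mice whose treatment label is saline, saline. All mice were wild type, weighed 22 to 25 g and had 7 intraperitoneal injections 1 h apart. In the model group each injection held caerulein at a stated 50 mg/kg, in the unit of the labels, and the last also held LPS, so the effects of caerulein and LPS cannot be told apart. Tissue was taken 24 h after the start. The sources used here give neither sex nor age, nor what the second entry of the treatment label stands for, nor whether each library came from its own mouse. The p-values are therefore about the spread from library to library, part of which may be technical.

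A let-7 miRNA is cut by Drosha and Dicer from a hairpin transcript, and its 5p arm, the guide, is the strand mainly loaded into Argonaute. The guide pairs with messenger RNAs mostly through its seed, bases 2 to 8, and lowers their translation and stability. The family is known for restraining growth genes such as Ras, Myc and Hmga2 and for accumulating as cells differentiate, while the RNA-binding protein LIN28 blocks its processing in embryonic cells.

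The 9 guides are shown because they share a seed and differ only in a few other bases, which is what separates their counts. Each is 22 nt long, and each deposited sequence was identical to the RefSeq entry for GRCm38.p6. Capitals mark the seed.
mmu-let-7a-5p: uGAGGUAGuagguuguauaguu
mmu-let-7b-5p: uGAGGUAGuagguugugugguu
mmu-let-7c-5p: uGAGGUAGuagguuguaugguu
mmu-let-7d-5p: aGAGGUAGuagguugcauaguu
mmu-let-7e-5p: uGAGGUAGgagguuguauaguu
mmu-let-7f-5p: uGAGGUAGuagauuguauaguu
mmu-let-7g-5p: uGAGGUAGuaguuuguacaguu
mmu-let-7i-5p: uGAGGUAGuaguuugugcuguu
mmu-miR-98-5p: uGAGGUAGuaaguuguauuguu

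Relative to let-7a-5p, with positions counted from 1 at the 5′ end, let-7c-5p differs by A19G, let-7e-5p by U9G and let-7f-5p by G12A. The other members carry more changes: A17G and A19G in let-7b-5p, U1A and U16C in let-7d-5p, G12U and U18C in let-7g-5p, and G11A and A19U in miR-98-5p. let-7i-5p is the farthest from let-7a-5p, with G12U, A17G, U18C and A19U. Of the 36 pairs of members, 4 differ at a single base: let-7a-5p against each of let-7c-5p, let-7e-5p and let-7f-5p, and let-7b-5p against let-7c-5p. Counts of such pairs are uncertain where a read had an error or a lost end, and the extent of this was not tested.

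The 9 guides come from 12 hairpins on GRCm38.p6, since the guides of let-7a, let-7c and let-7f are each encoded at more than 1 locus and their counts cannot be split by locus. On chromosome 13, Mirlet7d (48536012 to 48536114), Mirlet7f-1 (48537829 to 48537917) and Mirlet7a-1 (48538179 to 48538272) lie on the minus strand within exons of the noncoding 6720427I07Rik. On chromosome 15, Mirlet7c-2 (85706603 to 85706697) and Mirlet7b (85707319 to 85707403) lie on the plus strand within exons of the noncoding Lncppara. On chromosome X, Mirlet7f-2 (151912346 to 151912428) and Mir98 (151913214 to 151913321) lie in an intron of Huwe1, which codes for a ubiquitin ligase. Mirlet7g (chromosome 9, 106178840 to 106178927) is in an intron of Wdr82, and Mirlet7e (chromosome 17, 17830352 to 17830444) is in an intron of Spaca6. Mirlet7i (chromosome 10, 122985640 to 122985724) overlaps an exon of the pseudogene transcript D630033A02Rik. Mirlet7a-2 (chromosome 9, 41536716 to 41536811) and Mirlet7c-1 (chromosome 16, 77599657 to 77599750) lie in introns of noncoding transcripts, 3110039I08Rik and Mir99ahg among them. Genes overlapping the hairpins were read from GENCODE M21.

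Total miRNA counts were 2489009 to 3006220 in the model libraries and 1943693 to 2629801 in the control libraries. Levels are given as CPM, read counts brought to a common library size by TMM scaling, which sets the typical miRNA to no change between libraries. Replicate libraries differed far beyond counting noise, with chi-square values per degree of freedom of 51.5 to 66.1 between model libraries and 57.6 to 136 between control libraries. Marker miRNAs of the pancreas were abundant in all 6 libraries, the 2 endocrine ones summing to 38814 to 52059 CPM in model and 58792 to 80777 CPM in control libraries. Of these, miR-375-3p was at 30832 to 39999.8 CPM in model and 50694 to 69399 CPM in control libraries, whereas miR-7a-5p overlapped, at 7982 to 12059 CPM in model and 8099 to 11378 CPM in control libraries. The summed level of the 4 acinar markers was 47798 to 50959 CPM in model and 55743 to 92561 CPM in control libraries. Each of the 4 was highest in control library 45. The groups overlapped for miR-217-5p, at 1217 to 1946 CPM in model and 908 to 4135 CPM in control libraries. With TMM 0 of the 4 had a positive log2 fold change. Negative values were common at such levels, at 61.5% of non-let-7 rows of 1000 to 10000 CPM and 92% of those above. All 4 turned positive when libraries were scaled by the larger totals behind the authors' RPM values. The 6 leukocyte markers summed to 5499 to 12230 CPM in model and 4852 to 7212 CPM in control libraries, with 5 of 6 log2 fold changes positive with TMM and 1, miR-223-3p, called. No marker of these lists, or of the erythroid, liver and striated muscle lists, was at 0 in all libraries. The part of these cell types in the let-7 values was not tested. In bulk tissue, fewer cells of a type and less of an RNA per cell cannot be told apart.

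The let-7 guides made up a slightly smaller share of all miRNA counts in the model libraries, though a larger one of the authors' totals (2.35% in model and 1.76% in control libraries). Of the counts in the table it was 20.0%, 20.0% and 19.1% in model libraries 56, 57 and 59, against 21.7%, 20.5% and 20.1% in control libraries 43, 44 and 45. No model library reached the lowest control, and the gap between the nearest libraries was small beside the spread of each group. The means were 19.7% ± 0.495 in model and 20.8% ± 0.821 in control libraries (SD, n = 3 each), a difference of -1.06 percentage points, which was -0.606 without control library 43. Wilson 95% intervals, which cover counting error only, ran from 19.1% to 19.2% in model library 59 and from 21.6% to 21.7% in control library 43. Counting error was thus far smaller than the spread between libraries.

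Among members, let-7c-5p headed the order in every library and miR-98-5p closed it. In the control libraries the order was the same in all 3: let-7c-5p, let-7a-5p, let-7f-5p, let-7b-5p, let-7g-5p, let-7i-5p, let-7d-5p, let-7e-5p and miR-98-5p. In the model libraries let-7i-5p took a higher place, above let-7g-5p in all 3 and above let-7b-5p in 2 of 3, while the rest kept this order. Neighbours in the control order whose ranges did not separate were let-7c-5p and let-7a-5p, let-7a-5p and let-7f-5p, let-7b-5p and let-7g-5p, and let-7g-5p and let-7i-5p. Ranges separated in both groups between let-7d-5p and let-7e-5p and between let-7e-5p and miR-98-5p. In the control group the latter was nearly a tie, since control library 44 had 2978 CPM of let-7e-5p and 2960 CPM of miR-98-5p (6122 and 6084 counts). Of the 9 guides, 6 were among the 20 most abundant rows of every library. Counts of a member in a library ran from 3899 to 107665. All members have the same length, so no length correction applies, but adapter ligation can favour some ends over others, and its part in the order was not tested.

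**Figure D1:**
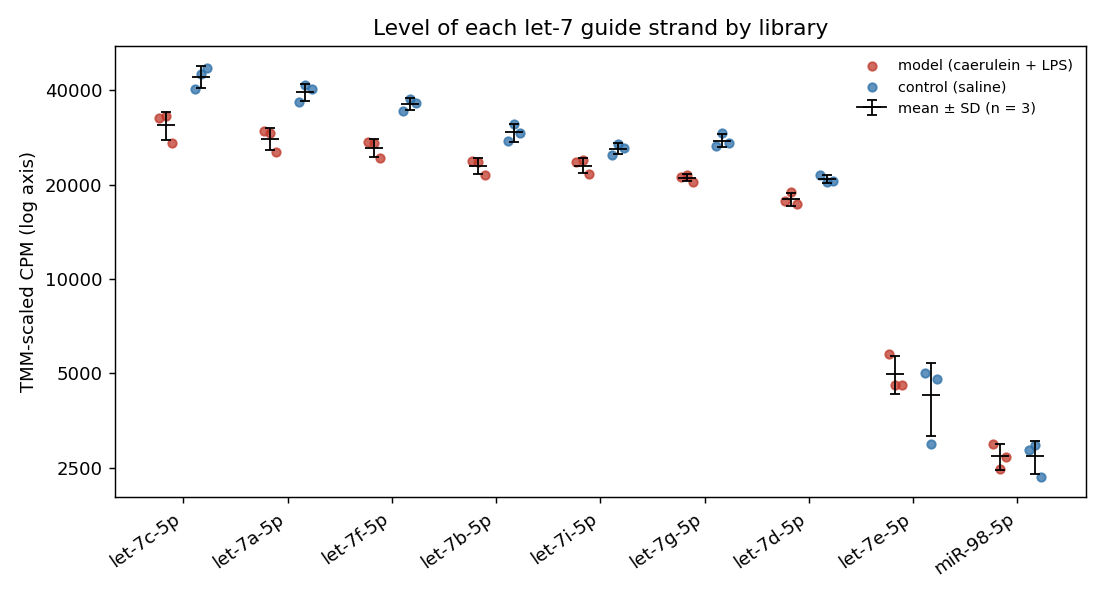
TMM-scaled CPM (log axis) of each let-7 guide in the 3 model and 3 control libraries, with points for libraries and bars for mean ± SD, n = 3 each. With this scaling every model library lies below every control for 7 guides, whose differences turn positive with the authors' totals, and the groups overlap for let-7e-5p and miR-98-5p.

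Model and control pancreas were then compared guide by guide. With TMM the 7 abundant let-7 guides lay lower in the model libraries, with log2 fold changes of -0.51 to -0.18 that were all positive with the authors' totals, and 0 of the 9 guides passed the threshold after adjustment over all rows. All 9 passed the filter on low counts, and of the 499 rows tested 1.20% were called (edgeR adjusted p under 0.05), 0.200% as lower. DESeq2 likewise called 0 of the 9. At an unadjusted p under 0.05 in edgeR, 5 of the 9 lay lower, where 12.4% of all rows did. The model libraries lay below all controls for 7 of the 9, against 16.6% of all rows. The median log2 fold change was -0.35 over the 9 guides and 0.0050 over all rows tested, of which 49.7% were negative. Except for let-7d-5p, let-7e-5p, let-7i-5p and miR-98-5p, the 95% intervals of the log2 fold changes lay below 0.

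The guide let-7c-5p, made at the Mirlet7c-1 and Mirlet7c-2 loci, was at 32574, 33005 and 27227 CPM in model libraries 56, 57 and 59, and at 40205, 45084 and 47014 CPM in control libraries 43, 44 and 45. Model library 59 was the lowest of the 6 and the groups did not overlap. Its log2 fold change was -0.51 (SE 0.12; 95% interval -0.79 to -0.23; edgeR adjusted p = 0.0731). let-7a-5p, the family's founding sequence and the same in worm and mouse, was at 29537, 29110 and 25370 CPM in model, against 36722, 41398 and 40406 CPM in control libraries. The groups were again apart, with model library 59 lowest, and the log2 fold change was -0.50 (SE 0.11; 95% interval -0.75 to -0.24; edgeR adjusted p = 0.0731). For let-7f-5p, which shares the chromosome 13 cluster with let-7a, levels were 27328, 27044 and 24296 CPM in model and 34321, 37601 and 36466 CPM in control libraries. These groups did not overlap either, and the log2 fold change was -0.46 (SE 0.10; 95% interval -0.70 to -0.22; edgeR adjusted p = 0.0731).

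Next in level came guides with smaller differences. let-7b-5p, from the chromosome 15 cluster, was at 23836, 23556 and 21437 CPM in model and 27463, 31247 and 29270 CPM in control libraries. Its log2 fold change was -0.35 (SE 0.11; 95% interval -0.61 to -0.10; edgeR adjusted p = 0.113). let-7g-5p, encoded within Wdr82, was at 21177, 21524 and 20412 CPM in model, where the 3 libraries lay close together, and at 26562, 29119 and 27134 CPM in control libraries. That is a log2 fold change of -0.39 (SE 0.10; 95% interval -0.63 to -0.15; edgeR adjusted p = 0.0802). let-7d-5p, the member with a different first base, was at 17709, 18960 and 17285 CPM in model and 21497, 20438 and 20600 CPM in control libraries. Groups were apart but near each other, and the log2 fold change was -0.21 (SE 0.11; 95% interval -0.46 to 0.036; edgeR adjusted p = 0.274). For let-7i-5p, known from human bile duct cells to target Toll-like receptor 4, levels were 23517, 23869 and 21570 CPM in model and 24885, 26944 and 26162 CPM in control libraries. Every model library was below every control, and the log2 fold change was -0.18 (SE 0.10; 95% interval -0.42 to 0.066; edgeR adjusted p = 0.355). Without model library 59 it was -0.10.

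The scarcest guides had values near or above 0. let-7e-5p, from the Mirlet7e hairpin that lies beside Mir99b and Mir125a, was at 5760, 4581 and 4601 CPM in model and 5016, 2978 and 4780 CPM in control libraries. Control library 44 was the lowest of the 6, and the groups overlapped. Its log2 fold change was 0.23 (SE 0.23; 95% interval -0.31 to 0.77; edgeR adjusted p = 0.640), and it was 0.013 without control library 44, 0.14 without model library 56 and 0.35 without control library 43. miR-98-5p, from the same intron as let-7f-2, was at 2983, 2472 and 2702 CPM in model and 2856, 2960 and 2337 CPM in control libraries. Both groups spanned almost the same range, and the log2 fold change was 0.00094 (SE 0.18, 95% interval -0.43 to 0.43, edgeR adjusted p = 0.996). With TMM this leaves room for a change of either sign up to that size. The interval does not cover the choice of scaling, and with the authors' totals the log2 fold change of miR-98-5p was 0.76.

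Differences of this size were common among other abundant miRNAs. Of the 25 rows of at least 10000 CPM that were not let-7 guides, 23 had negative log2 fold changes, with a median of -0.36. The 7 guides in that class had a median of -0.39, and 11 of the 25 other rows lay below it. Between 1000 and 10000 CPM, where let-7e-5p and miR-98-5p lie, the 65 other rows had a median of -0.16 with 40 negative, and 46 of them lay below the 0.11 median of those guides. Among rows of 100 to 1000 CPM the median was 0.14.

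**Figure D2:**
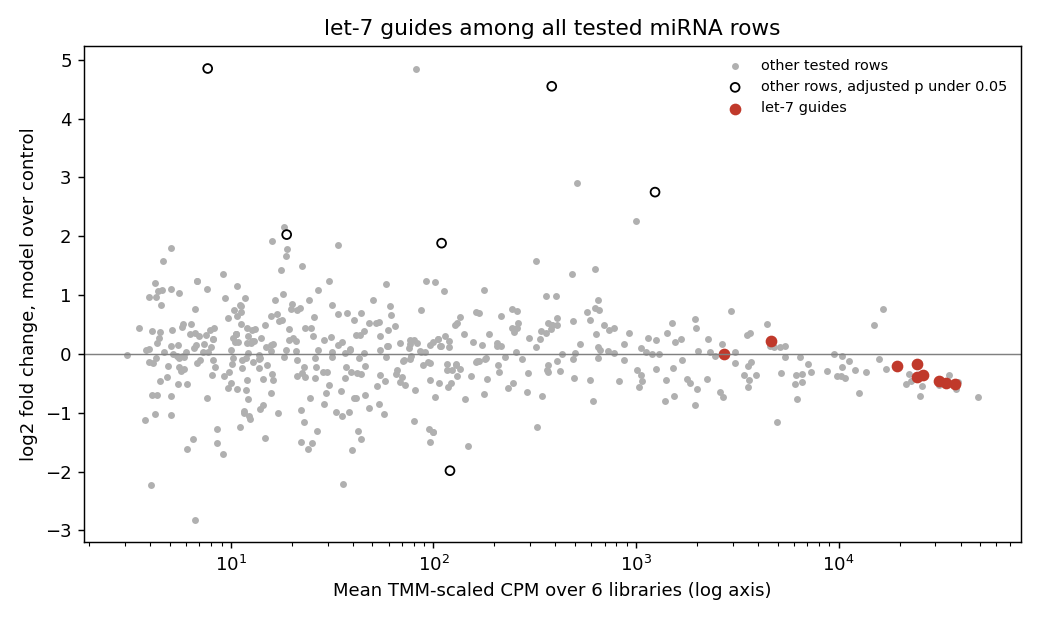
Log2 fold change, model over control, against mean TMM-scaled CPM (log axis) for the 499 tested rows, 1 point each. With TMM the 7 abundant let-7 guides sit at -0.51 to -0.18, among other abundant rows with a median of -0.36. With the authors' totals these 7 guides lie above 0. On the TMM scale shown, let-7e-5p sits at 0.23 (SE 0.23) and miR-98-5p at 0.00094 (SE 0.18).

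The sign of these values depended on the scaling of the libraries. Over all rows, the median of the log2 fold changes moved by 0.29 with total counts alone, by -0.29 with upper quartile factors and by 0.79 with the larger totals that underlie the RPM columns. With the authors' totals all 9 guides had positive log2 fold changes, from 0.29 for let-7c-5p to 0.98 for let-7e-5p, and let-7e-5p was called (edgeR adjusted p = 0.0306), as were 24.8% of all rows in that direction. With upper quartile factors let-7a-5p, let-7b-5p, let-7c-5p, let-7f-5p and let-7g-5p were called lower, as were 7.82% of all rows. With RLE factors let-7a-5p and let-7f-5p were called lower (edgeR adjusted p = 0.0486 for each), as were 1.60% of all rows. Without the filter on low counts let-7a-5p and let-7c-5p were called lower (edgeR adjusted p = 0.0449 and 0.0321), as were 2.48% of all 1414 rows. A change of scaling moves all rows of a library alike, so values measured from the median of all rows are nearly fixed by construction. With TMM, RLE, total counts, upper quartile factors and the authors' totals they were -0.50 to -0.49 for let-7a-5p and 0.19 to 0.25 for let-7e-5p. Which scaling is nearest to the level per gram of tissue was not tested.

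**Figure D3:**
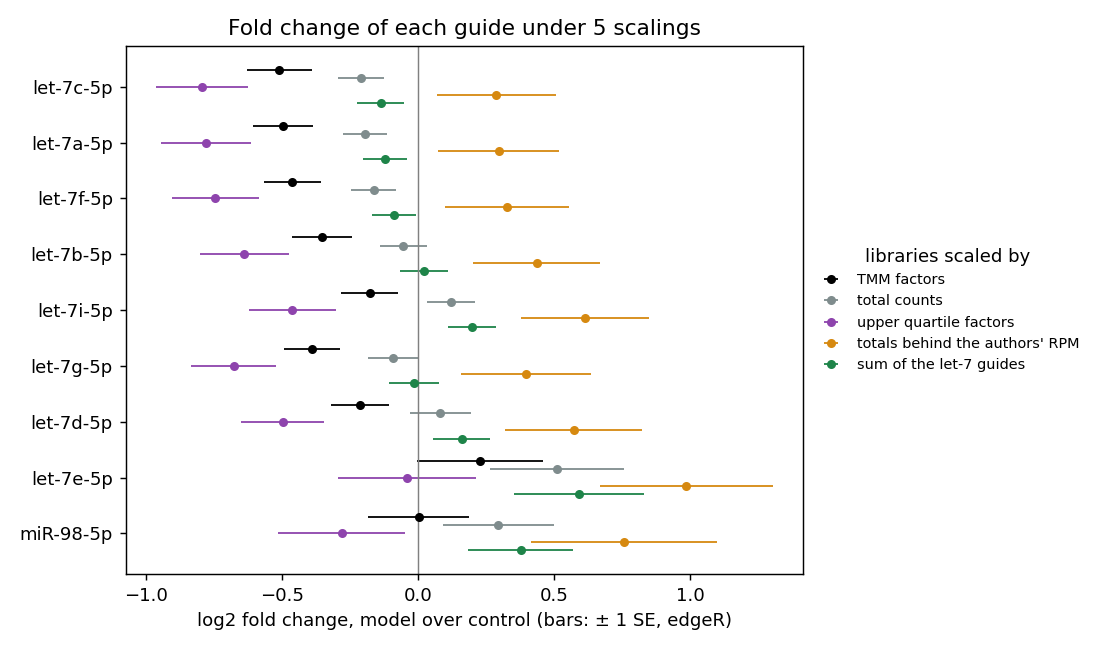
Log2 fold change of each guide, model over control, with libraries scaled in 5 ways, and bars of ± 1 SE from edgeR. A change of scaling moves all rows alike, so the joint shift of the family and the kept order of its members are nearly fixed by construction. In each scaling let-7e-5p and miR-98-5p lie to the right of let-7c-5p and let-7a-5p.

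The make-up of the let-7 pool needs no scaling between libraries, since each guide is taken as a share of the 9 guides' summed counts in its own library. In the model libraries let-7i-5p, let-7e-5p and miR-98-5p took larger shares and let-7f-5p, let-7a-5p and let-7c-5p smaller ones than in any control. That is 3 of the 9 above and 3 below all controls. Divided by the guide sum in the same way, 29.7% of all tested rows lay above all controls and 6.61% below. The 3 larger shares are therefore near what rows in general show on this scale. The let-7i-5p share was 12.8%, 13.0% and 13.1% in model libraries 56, 57 and 59, against 11.3%, 11.3% and 11.2% in control libraries 43, 44 and 45. Each group was tight and the gap between them was several times their spread. The let-7f-5p share was 14.8%, 14.7% and 14.7% in model and 15.6%, 15.8% and 15.6% in control libraries, as tight in both groups but shifted the other way. The let-7a-5p share averaged 15.7% ± 0.322 in model and 17.1% ± 0.358 in control libraries, and that of let-7c-5p 17.4% ± 0.752 and 19.1% ± 0.892 in model and control libraries (SD, n = 3 each). Together these 3 abundant guides took 48.5%, 48.4% and 46.6% of the pool in model libraries, against 50.7%, 52.2% and 52.9% in control libraries.

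Among the 3 guides with larger shares in the model libraries were the scarce let-7e-5p and miR-98-5p. let-7e-5p made up 3.12%, 2.49% and 2.79% of the pool in model and 2.28%, 1.25% and 2.04% in control libraries, a ratio of the group means of 1.51. miR-98-5p made up 1.62%, 1.34% and 1.64% in model and 1.30%, 1.24% and 0.998% in control libraries, where model library 57 lay just above control library 43. The shares of let-7b-5p, let-7d-5p and let-7g-5p overlapped between the groups, with means of 12.9%, 10.1% and 11.9% in model and 12.7%, 9.06% and 12.0% in control libraries. Counting error was at most 0.126 points on either side of a share (Wilson 95% interval). The shares of 1 library add up to 100%, so these differences are not independent of each other.

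Tested across all rows with libraries scaled to the sum of the let-7 guides, 0 of the 9 guides passed the threshold, where 4.21% of rows did. The log2 fold change relative to the family was 0.59 for let-7e-5p (SE 0.24, edgeR adjusted p = 0.156), 0.38 for miR-98-5p (SE 0.19, edgeR adjusted p = 0.241) and 0.20 for let-7i-5p (SE 0.087, edgeR adjusted p = 0.181). It was -0.14 for let-7c-5p (SE 0.085, edgeR adjusted p = 0.317) and -0.12 for let-7a-5p (SE 0.081, edgeR adjusted p = 0.351). On this scale the median over all tested rows was itself 0.38. The value of miR-98-5p was thus that of the typical row, let-7i-5p lay below it and let-7e-5p 0.21 above it. Groups did not overlap for 6 of the 9, and on this scale they did not for 36.3% of all rows, 29.7% with model above and 6.61% with model below control.

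**Figure D4:**
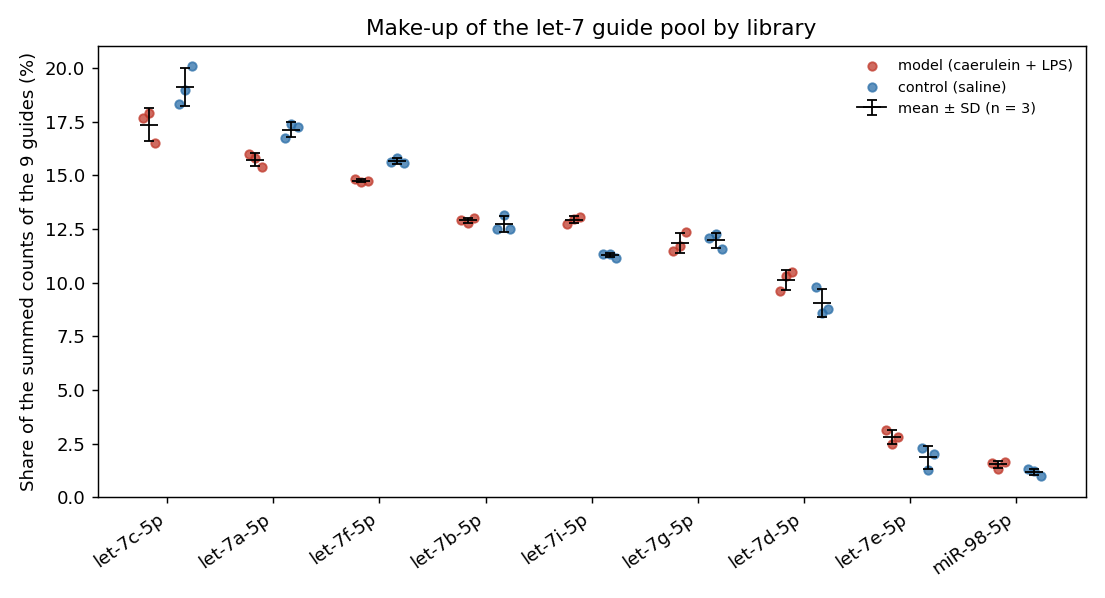
Share (%) of each guide in the summed counts of the 9 let-7 guides, with points for the 3 model and 3 control libraries and bars for mean ± SD. let-7i-5p lies at 12.8% to 13.1% in model and 11.2% to 11.3% in control libraries, and let-7f-5p at 14.7% to 14.8% in model and 15.6% to 15.8% in control libraries.

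Ratios between particular members were compared as well, for pairs chosen after the values had been seen. let-7i-5p and let-7g-5p are the pair with the same G12U and U18C changes from let-7a-5p, and they differ from each other at 2 bases. The ratio of let-7i-5p to let-7g-5p was 1.11, 1.11 and 1.06 in model and 0.937, 0.925 and 0.964 in control libraries, so let-7i-5p outnumbered let-7g-5p in every model library and in no control. Single-base neighbours let-7c-5p and let-7a-5p kept overlapping ratios, 1.10, 1.13 and 1.07 in model and 1.09, 1.09 and 1.16 in control libraries. For let-7e-5p, also a single base from let-7a-5p, the ratio to let-7a-5p was 0.195, 0.157 and 0.181 in model and 0.137, 0.0719 and 0.118 in control libraries, with no overlap.

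Ratios of guides from the same cluster separated the groups in 3 of the 4 neighbouring pairs. For comparison, 36.3% of all rows did not overlap when scaled to the sum of the let-7 guides. The share over other pairs of miRNAs was not computed, so how unusual this count is was not tested. On chromosome 13, where Mirlet7d and Mirlet7f-1 lie 1714 bases apart, the ratio of let-7d-5p to let-7f-5p was 0.648, 0.701 and 0.711 in model and 0.626, 0.544 and 0.565 in control libraries. On chromosome X, where Mirlet7f-2 and Mir98 lie 785 bases apart, the ratio of miR-98-5p to let-7f-5p was 0.109, 0.0914 and 0.111 in model and 0.0832, 0.0787 and 0.0641 in control libraries. The ratio was higher in every model library in both cases. The closest pair overlapped: for Mirlet7f-1 and Mirlet7a-1, 261 bases apart, the ratio of let-7f-5p to let-7a-5p was 0.925, 0.929 and 0.958 in model and 0.935, 0.908 and 0.902 in control libraries. On chromosome 15, where Mirlet7c-2 and Mirlet7b lie 621 bases apart, the ratio of let-7c-5p to let-7b-5p was 1.37, 1.40 and 1.27 in model and 1.46, 1.44 and 1.61 in control libraries, lower in every model library. Counts of the let-7a, let-7c and let-7f guides pool several loci, so these ratios do not follow a single transcript.

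The ratio of a guide to its passenger strand, the 3p arm of the same hairpin, is also free of scaling. Mirlet7e and Mirlet7i are shown because their ratios differed most between the groups, in opposite directions. The sequences are RefSeq hairpins on GRCm38.p6, at chr17:17830352-17830444 on the plus strand and chr10:122985640-122985724 on the minus strand. Capitals mark the guide near the 5′ end and the passenger near the 3′ end.
Mirlet7e: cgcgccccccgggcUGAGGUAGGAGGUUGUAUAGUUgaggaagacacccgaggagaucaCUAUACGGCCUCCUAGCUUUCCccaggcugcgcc
Mirlet7i: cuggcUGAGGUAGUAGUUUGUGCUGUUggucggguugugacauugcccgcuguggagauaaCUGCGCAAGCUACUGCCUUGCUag

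The log2 ratio of 5p to 3p counts of let-7e was 7.97, 7.62 and 7.37 in model and 6.65, 5.06 and 6.75 in control libraries, with every model library above every control. The difference was 1.50 (SE 0.50, limma adjusted p = 0.280), and it was 0.95 without control library 44, the lowest of the 6. For let-7i the log2 ratio was 5.06, 5.63 and 6.47 in model and 6.38, 6.61 and 7.45 in control libraries, overlapping between model library 59 and control library 43, with a difference of -1.09 (SE 0.47, limma adjusted p = 0.358). Of the 141 miRNAs with enough counts on both arms 0.709% were called, and 0 of the 7 let-7 members among them were. let-7b and let-7g had too few passenger counts to be included. The other 5 had differences from -0.64 for let-7f to 0.77 for let-7c. For let-7f every model library lay below every control, at 10.7 to 10.9 in model and 11.1 to 11.7 in control libraries. The share of the 141 whose groups did not overlap was not computed, so how unusual this is was not tested. Without control library 44 the difference was 0.42 for let-7c, 0.38 for let-7a and 0.021 for let-7d, and without control library 45 it was -0.079 for miR-98. The let-7c-2-3p passenger has the sequence and the counts of let-7a-1-3p, so the ratios of let-7a and let-7c share them.

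**Figure D5:**
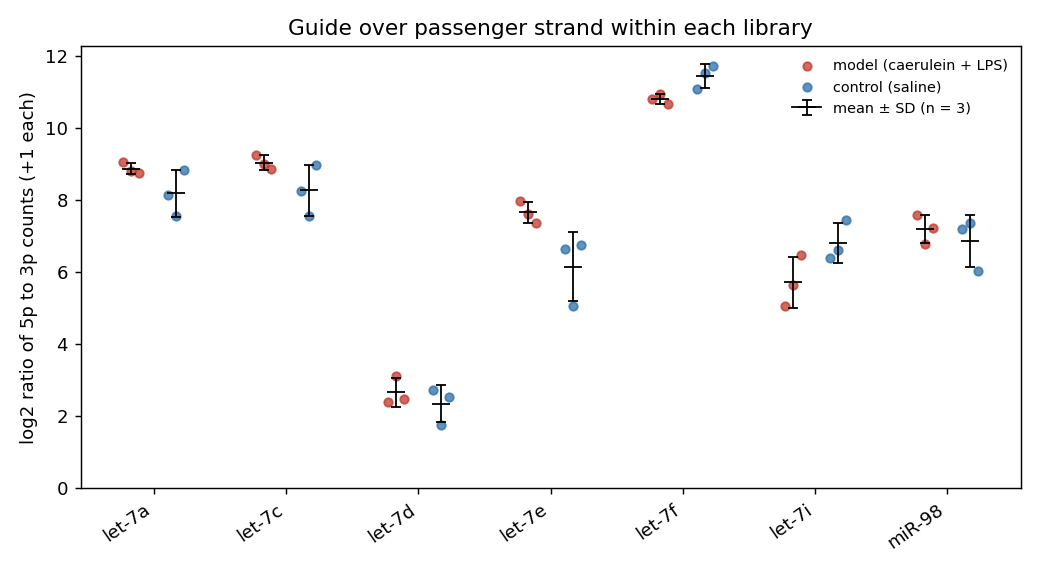
Log2 ratio of 5p to 3p counts, with 1 count added to each arm, for the 7 let-7 members tested, with points for the 3 model and 3 control libraries and bars for mean ± SD. The let-7d ratio is the lowest, at 2.66 in model and 2.34 in control libraries on average, and let-7f is the highest, at 10.8 in model and 11.4 in control libraries.

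Levels of miRNAs from hairpins clustered with let-7 genes were compared with the guides. These are miR-100-5p and miR-125b-5p with Mirlet7a-2, miR-99a-5p and miR-125b-5p with Mirlet7c-1, and miR-99b-5p and miR-125a-5p with Mirlet7e. Not all are close: Mir100 lies 5211 bases and Mir125b-1 45114 bases from Mirlet7a-2. The distance from Mirlet7c-1 to Mir125b-2 was not measured. All 5 had negative log2 fold changes with TMM, where 0 of 5 were called and the median was -0.52. With the authors' totals all 5 had positive ones. Among all rows other than the let-7 guides, 61.5% were negative with TMM at 1000 to 10000 CPM and 92% at 10000 CPM or more. The median is the value of miR-125b-5p (SE 0.62), which was at 5253, 3592 and 6162 CPM in model and 4174, 2594 and 14706 CPM in control libraries. miR-99a-5p, 656 bases from Mirlet7c-1, was at 25959, 27640 and 23229 CPM in model and 32917, 42591 and 34806 CPM in control libraries, and did not overlap between groups. Its log2 fold change was -0.52, with an SE of 0.13 (edgeR adjusted p = 0.0802), beside -0.51 for let-7c-5p. Beside let-7e-5p, at 0.23, miR-99b-5p had -0.18 (SE 0.20, edgeR adjusted p = 0.657) and miR-125a-5p had -0.65 (SE 0.32, edgeR adjusted p = 0.274). Control library 45 stood apart with 14706 CPM of miR-125b-5p and 4852 CPM of miR-125a-5p, against at most 6162 and 2550 CPM in the other libraries.

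The rows most like the family over the 6 libraries were found among 87 other known rows of at least 1000 CPM. Likeness was the root mean square difference between the log2 CPM of a row and the mean of the 9 guides, each centred on its own mean. The nearest were miR-34a-5p, at 0.101 log2 units, miR-200c-3p (0.106), miR-181a-5p (0.114), miR-126a-3p (0.117) and miR-15a-5p (0.117). The guides' own distances from their mean ran from 0.0552 for let-7i-5p to 0.362 for let-7e-5p, and miR-98-5p was at 0.189. By this measure let-7e-5p, miR-98-5p, let-7c-5p and let-7a-5p lay farther from the family mean than these 5 other miRNAs did. The 5 were picked as the nearest of the 87, and the guides are part of the mean they are measured from. The comparison therefore describes these values only and does not test how closely the family moves together. The family mean, centred, was -0.058, -0.11 and -0.22 in model libraries 56, 57 and 59, and 0.12, 0.13 and 0.14 in control libraries 43, 44 and 45.

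A further 12 rows of the table carry the let-7 seed, and all are of 18 or 19 nt. They held 1736 counts in all, 0.0560% of the 3100447 counts of the 9 guides. The known one, let-7k, had 7, 20 and 6 counts in model libraries 56, 57 and 59 and 8, 9 and 7 in control libraries 43, 44 and 45. The other 11 are predicted rows, and the 2 with most counts that have a listed chromosome are shown with let-7k to set them beside the guides.
let-7k: uGAGGUAGgagguugugug
predicted row on chromosome 14: uGAGGUAGuggguugugu
predicted row on chromosome 1: gGAGGUAGuaguuugugu

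The row shown on chromosome 14 differs from the start of let-7b-5p only by A10G, and let-7k differs from it only by U9G. The chromosome 14 row had 20, 70 and 45 counts in model and 72, 67 and 58 in control libraries, and the chromosome 1 row had 27, 54 and 46 in model and 37, 20 and 19 in control libraries. The most abundant of the 11, for which the table lists no chromosome, differs from let-7b-5p by U1G and had 112 to 250 counts in model and 123 to 190 in control libraries. These are raw counts, not scaled to library size, and as such they overlapped between the groups in each of these 4 rows. For the chromosome 14 row the overlap came only from model library 57, with 70 counts and the largest library total, 3006220. Overlap after scaling was not tested for these rows. How far they are separate transcripts was not tested.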

How the data were processed

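Small RNA of 18 to 30 nt from mouse pancreas was gel-selected and ligated to adapters with molecular identifiers, per the labels' protocols. Per the submitters' processing notes Bowtie2 and GRCm38.p6 were used, and neither roles nor versions are stated. The read counts were deposited by the authors as whole numbers for 1104 known and 310 predicted rows, and whether identifiers were collapsed is not stated. The RPM values were also deposited by the authors, and dividing counts by them gave library totals of 22055637 to 27876717, far above the summed counts, with no statement of what they include.

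Counts were tested with edgeR 4.0.16 (quasi-likelihood, robust, TMM factors, R 4.3.3), model against control, n = 3 each, after filterByExpr (minimum count 10, minimum total 15), with Benjamini-Hochberg adjustment over all 499 rows kept and a threshold of 0.05. The log2 5p to 3p ratios (1 count added to each arm, mean of at least 10 counts on each arm) were tested with limma 3.58.1. DESeq2 1.42.0, other scalings, no filter, other denominators and leaving out each library were alternatives. Tests were checked on simulated data. Sequences were matched to RefSeq (GRCm38.p6) and hosts to GENCODE. Named rows were the 9 members, other rows with their seed, clustered neighbours and the 5 rows most like the family. The members and lists were chosen with earlier results of these data known. Wilson 95% intervals cover counting error only.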

Additional observations from a re-analysis of the deposited data

How the results depend on the processing

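The count of called miRNAs, 6 with TMM, was 15 with RLE factors, 18 with total counts, 45 with upper quartile factors, 126 with the authors' RPM totals, 21 scaled to the guide sum, 33 with DESeq2, 58 without a filter and 3 to 10 leaving out 1 library: 3 without model library 57 and 10 without control library 43. Log2 fold changes passing the threshold were -0.49 for let-7a-5p and -0.46 for let-7f-5p with RLE factors; -0.78, -0.64, -0.79, -0.75 and -0.68 for let-7a-5p, let-7b-5p, let-7c-5p, let-7f-5p and let-7g-5p with upper quartile factors; -0.52 and -0.53 for let-7a-5p and let-7c-5p without a filter; and 0.98 for let-7e-5p with the authors' totals. The sign turned with the authors' totals to 0.30 for let-7a-5p, 0.44 for let-7b-5p, 0.29 for let-7c-5p, 0.57 for let-7d-5p, 0.33 for let-7f-5p, 0.40 for let-7g-5p and 0.61 for let-7i-5p. It turned with total counts for let-7d-5p (0.081) and let-7i-5p (0.12), and with the guide sum for let-7b-5p (0.021), let-7d-5p (0.16) and let-7i-5p (0.20). It turned for let-7e-5p (-0.040) and miR-98-5p (-0.28) with upper quartile factors. For miR-98-5p it also turned without a filter (-0.021), with a newer dispersion estimate chosen after seeing the data (-0.0036) and without model library 56 or control library 45 (range leaving out 1 library -0.12 to 0.097). The miR-98 arm ratio difference ranged from -0.079, without control library 45, to 0.59. The difference in family share was 0.588 points with the authors' totals. Without let-7c-5p in the denominator, the share differences of let-7a-5p and let-7f-5p were -2.14 and -1.53 points. These causes were not tested. In all, 243 of the other values kept direction and side of the threshold or moved less than the replicate spread. No paired analysis was possible because the groups share no replicate numbers.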
